A study of Mus musculus with 16 samples.

Results

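The collagen genes of mHiPPoE-2 cells were taken as every row of the deposited gene table whose Ensembl 98 symbol reads Col, a number, the letter a and a number, with rows that join overlapping genes split into their names. Of the 53333 rows of the table, 44 were collagen genes, and these comprised 11 fibrillar collagens, 6 basement membrane collagens of type IV and 27 other collagens. The line is a transformed neuron line of mouse hippocampus, strain Crl:CFW(SW)-024, grown with no treatment, and 16 ribodepleted total RNA libraries were made from 8 groups of 2. The groups were a METTL3 knockout (Cas9-guided METTL3 KO, 1 clonal isolate), KO rescue clones 2 and 1 (Cas9-guided RBM45 KO cells that carry F-HA-tagged RBM45_mut[delta]gRNA), RBM45 KO clones 2 and 1 (Cas9-guided RBM45 KO), control clones 2 and 1 (Cas9 without gRNA) and the unedited wild type (WT). METTL3 writes N6-methyladenosine into RNA, and RBM45 is an RNA-binding protein. All clones are isogenic clonal isolates, so a genotype rests on 1 clone (METTL3 KO) or 2 clones. No column name reads as a control. The 4 columns left after every other one was matched to its label were taken as the control libraries, an assignment by elimination on which each comparison with the control clones rests. Which control or rescue clone is clone 1 cannot be read from the columns either, so those clone numbers are names only.

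Collagens are proteins of the extracellular matrix in which chains wind into a triple helix. Fibrillar collagens are secreted as procollagens, trimmed at their ends and assembled into banded fibrils, whereas type IV collagens keep their ends and join into the sheet-like network of basement membranes. In the brain, collagen is best known from the basement membranes of blood vessels and from the meninges, and little of it lies in the matrix around neurons.

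Gene-table totals were 7193908 to 18751324 counts per library, and 12 rows, each with 0.5% or more of the counts of some library, accounted for between 53.3% and 70.6% of these counts. Levels are given as CPM, the usual count rate of a library, here relative to library sizes scaled by TMM. Mettl3 stood at 3.53 ± 0.255 CPM in METTL3 KO and at 10.2 ± 2.03 CPM in WT (SD, n = 2 each), and Rbm45 at 23.2 ± 2.05 CPM in KO rescue, 8.04 ± 2.08 CPM in RBM45 KO and 14.7 ± 1.90 CPM in control (SD, n = 4 each), against means of 10.7 CPM in METTL3 KO and 12.6 CPM in WT. Of 8 neuron markers, 3 averaged at least 1 CPM and Stmn2 and Nefl had no counts, and Map2 made up most of the list's sum of 42.0 to 139 CPM. Rbfox3, Snap25 and Syt1, which mark mature neurons, were absent or near 0. Of 9 fibroblast or mesenchyme markers, 6 averaged at least 1 CPM, led by Fn1 and Vim, while Dcn and Lum were at or near 0. That list summed to 1349 to 1393 CPM in METTL3 KO, 2201 to 2825 CPM in the rescue clones, 2688 to 2817 CPM in RBM45 KO clone 2, 3119 to 3444 CPM in RBM45 KO clone 1, 2323 to 2366 CPM in control clone 2, 2805 to 2997 CPM in control clone 1 and 2086 to 2220 CPM in WT. The 6 smooth muscle or pericyte markers, of which 4 averaged at least 1 CPM and Rgs5 and Myh11 were near 0, summed to 159 to 168 CPM in METTL3 KO and to 469 to 1155 CPM in the other groups. METTL3 KO thus had the lowest sum of both lists, and RBM45 KO clone 1 the highest sum of fibroblast or mesenchyme markers. Fn1 and Vim made up most of the latter sums, and not every marker followed them. Prrx1 was highest in METTL3 KO, at 188 to 216 CPM, with no other library above 109 CPM. Pdgfrb, at 87.8 to 92.5 CPM in METTL3 KO, was not low there either. The part of these markers in the collagen differences was not tested. Summed markers of endothelium (at most 3.45 CPM), oligodendrocytes (at most 3.04 CPM) and astrocytes (at most 25.1 CPM, in control clone 2) were low, and those of microglia were 36.2 to 59.6 CPM, most of it Cx3cr1. Whether fewer cells held a transcript or each cell held less of it cannot be told apart in such bulk libraries.

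Counted per exon length, 3 of the 6 most abundant collagens were fibrillar and 2 were type IV. Col1a1, the main chain of type I collagen fibrils, averaged 145 exon CPM per kilobase, as the mean of the 16 libraries, with a range of 10.8 to 506. Col4a1 followed at 44.9, Col5a2 at 44.3, Col5a1 at 31.6, Col4a2 at 21.2 and Col12a1 at 17.1 exon CPM per kilobase. The ranges of neighbours in this order overlapped, so the order holds for the means only. Col6a1 (6.06), Col11a1 (5.25), Col4a5 (4.53) and Col6a3 (4.12) came next on the same scale. At the other end, 17 members had under 100 counts in all libraries together, and Col6a5 had none. A fragment was counted in each exon bin that it overlapped, which raises this level in genes with many short exons, as collagen genes have.

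**Figure D1:**
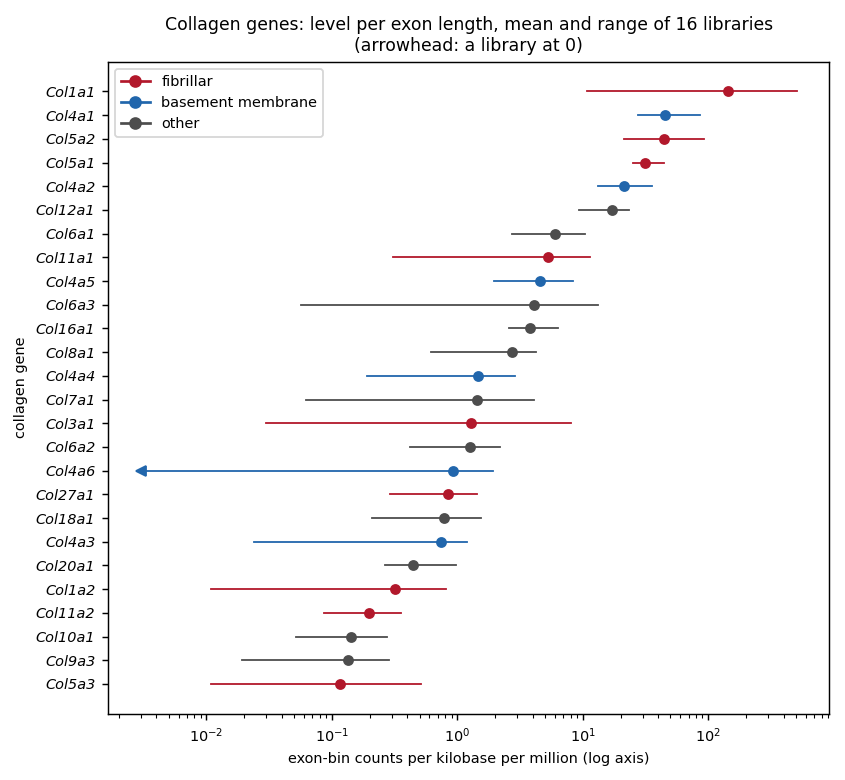
Level of the 26 most abundant collagen genes in exon CPM per kilobase (log axis), as the mean (point) and range (line) of the 16 libraries, coloured by class; an arrowhead marks a gene with a library at 0. Col1a1 has the highest mean, at 145, Col4a6 has a library at 0, and the lines of Col3a1 and Col6a3 are the longest of the other genes.

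The clones differed from each other in many collagen genes. Between the RBM45 genotypes, with clones as the unit, no collagen gene passed the test, where 0% of all genes did. With 2 clones per genotype that test called no gene at all, so its outcome is not particular to collagens. Each fit tested 29 members, those that passed the filter on low counts, with edgeR's quasi-likelihood test and Benjamini-Hochberg adjustment over all genes at 0.05. In METTL3 KO against WT, 7 members rose and 6 fell, where 22.9% of all 16223 genes passed (11.2% higher and 11.8% lower). Against the control clones, METTL3 KO had 6 members higher and 7 lower, with 30.6% of all genes called (16.1% higher and 14.5% lower). In the control clones against WT, 9 members were higher and 2 lower, and 8.99% of all genes were called (3.19% higher and 5.79% lower). The count of called members went to 7 without WT library 1. Both contrasts with the control clones average 2 clones that differed from each other, so a call need not hold for each clone. The control libraries did not overlap WT for 8 of the 29 members and 3329 of the 16223 genes. They did not overlap METTL3 KO for 12 members and 6495 genes. In control clone 2 against control clone 1, 6 members were higher and 7 lower, where 19.6% of all genes were called (9.96% higher and 9.61% lower). In RBM45 KO clone 2 against RBM45 KO clone 1, 1 member was higher and 15 were lower, where 14.1% of all genes were called (6.49% higher and 7.65% lower). The count of 16 went to 10 without library 1 of clone 1 and to 10 without library 2 of clone 2. In KO rescue clone 2 against KO rescue clone 1, 3 members were lower and none higher, where 2.29% of all genes were called (0.807% higher and 1.48% lower). Leaving out library 2 of rescue clone 1, or either library of rescue clone 2, left 1 member called. These 6 comparisons take their spread from replicate libraries that are not said to be separate cultures, so what they test is a line or a clone, not a genotype.

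**Figure D2:**
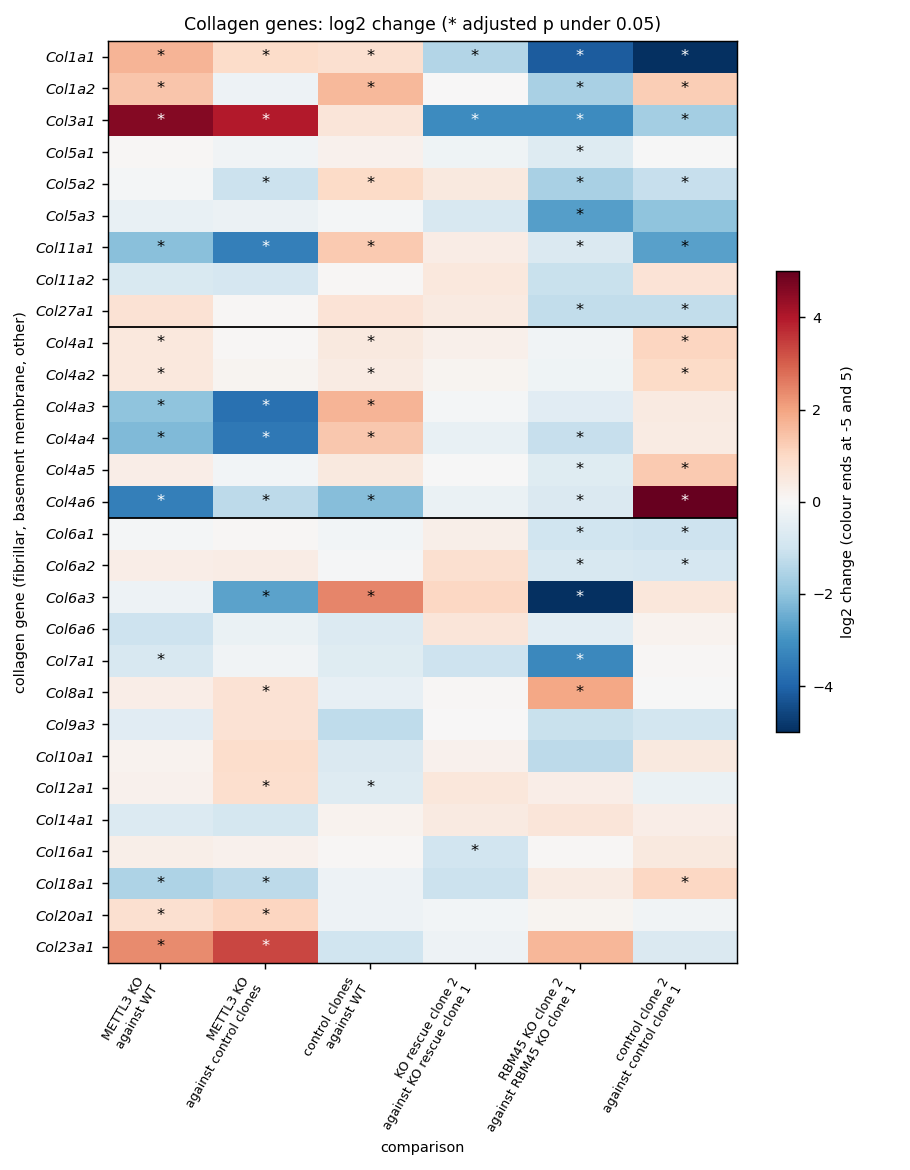
Log2 change of the 29 tested collagen genes (rows, from fibrillar at the top through basement membrane to other) in 6 comparisons of lines and clones (columns), red for higher and blue for lower in the first-named group, with an asterisk for an adjusted p under 0.05. The column of RBM45 KO clone 2 against clone 1 is mostly blue, with 15 members lower, and that of the rescue clones has 3 asterisks.

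Among the fibrillar collagens, 8 of 9 tested genes were lower in RBM45 KO clone 2 than in clone 1, and 5 were lower and 1 higher in control clone 2 than in control clone 1. In METTL3 KO against WT, 3 were higher and 1 was lower. Col1a1 had 358 and 329 CPM in METTL3 KO, 45.1 and 57.2 in KO rescue clone 2, 140.3 and 144 in KO rescue clone 1, 85.8 and 68.4 in RBM45 KO clone 2, 1418 and 1375 in RBM45 KO clone 1, 34 and 29.2 in control clone 2, 1038 and 1055 in control clone 1 and 89.2 and 121 in WT. RBM45 KO clone 1 and control clone 1 were the highest groups, METTL3 KO came next, and control clone 2 was the lowest, with no overlap between these groups. Col1a1 was higher in METTL3 KO than in WT (log2 change 1.71, SE 0.17, adjusted p = 4.35e-06, edgeR). It was lower in control clone 2 than in control clone 1 (log2 change -5.05, SE 0.19, adjusted p = 2.75e-11, edgeR) and lower in RBM45 KO clone 2 than in RBM45 KO clone 1 (log2 change -4.18, SE 0.18, adjusted p = 1.48e-10, edgeR). The rescue clones differed in the same direction (log2 change -1.47, SE 0.17, adjusted p = 6.04e-05, edgeR). Against the mean of both control clones on the log scale, METTL3 KO was higher (log2 change 0.92, SE 0.14, adjusted p = 7.65e-05, edgeR), although its arithmetic mean of 344 ± 20.7 CPM (SD, n = 2) lay below the controls' 539 ± 586 CPM (SD, n = 4), since it stood between the control clones.

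Col1a2, which encodes the second chain of type I collagen, did not follow the level of Col1a1 in all groups. The Col1a1 to Col1a2 ratio of gene-body counts ran from 5.81 in a library of control clone 2 to 620 in a WT library with 1 count of Col1a2, with a median of 106. Control clone 2 had the highest Col1a2, at 5.47 and 5.03 CPM, where its Col1a1 was the lowest of all groups. Control clone 1 had 2.68 and 1.78 CPM of Col1a2, so that in control clone 2 against control clone 1 Col1a2 was higher (log2 change 1.24, SE 0.33, adjusted p = 0.0135, edgeR) and Col1a1 was lower. In RBM45 KO clone 2 against clone 1, both genes were lower, Col1a2 by a log2 change of -1.61 (SE 0.42, adjusted p = 0.0145, edgeR). Both genes were higher in METTL3 KO than in WT, Col1a2 with 72 counts against 19. That gave a ratio of 2.54 (95% exact interval 1.52 to 4.46, counting error only). The WT libraries held 1 and 18 counts, so the WT level of Col1a2 is uncertain.

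Col3a1, whose type III chains assemble with type I collagen, marked METTL3 KO. Col3a1, counted in a row joined with Gm47302, had 31.2 and 19.9 CPM in METTL3 KO, 0.134 and 0.321 in KO rescue clone 2, 1.43 and 2.94 in KO rescue clone 1, 1.09 and 0.834 in RBM45 KO clone 2, 9.36 and 7.85 in RBM45 KO clone 1, 0.895 and 0.883 in control clone 2, 2.31 and 3.50 in control clone 1 and 0.288 and 1.6 in WT. Both METTL3 KO libraries lay above every other library, and RBM45 KO clone 1 was the next group. The 604 counts in METTL3 KO against 18 in WT gave a ratio of 22.5 (95% exact interval 14.1 to 38.2, counting error only), and the log2 change was 4.58 (SE 0.41, adjusted p = 1.44e-06, edgeR). Col3a1 was lower in RBM45 KO clone 2 than in clone 1 (log2 change -3.15, SE 0.42, adjusted p = 4.04e-05, edgeR). Between the rescue clones it was lower in clone 2, with 7 against 63 counts and a ratio of 0.112 (95% exact interval 0.0432 to 0.244, counting error only; adjusted p = 0.0102, edgeR).

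Type V collagen, which regulates the width of type I fibrils, was abundant in all groups. Col5a2 had 146 and 157 CPM in METTL3 KO, 167 and 169.5 in KO rescue clone 2, 128 and 114 in KO rescue clone 1, 145 and 157 in RBM45 KO clone 2, 456 and 475 in RBM45 KO clone 1, 196 and 233 in control clone 2, 475 and 471 in control clone 1 and 154 and 171 in WT. RBM45 KO clone 1 and control clone 1 stood above all other libraries, control clone 2 came next, and METTL3 KO overlapped WT. Col5a2 was lower in control clone 2 than in control clone 1 (log2 change -1.14, SE 0.13, adjusted p = 7.06e-06, edgeR) and lower in RBM45 KO clone 2 than in clone 1 (log2 change -1.62, SE 0.13, adjusted p = 1.51e-07, edgeR). Col5a2 was also higher in the control clones than in WT (log2 change 0.97, SE 0.12, adjusted p = 3.59e-05, edgeR), and every control library lay above both WT libraries. Its partner Col5a1 varied less. Col5a1 had 148 and 167 CPM in METTL3 KO, 207 and 198 in KO rescue clone 2, 223 and 243 in KO rescue clone 1, 173 and 154 in RBM45 KO clone 2, 269 and 244 in RBM45 KO clone 1, 164 and 190.1 in control clone 2, 178 and 181 in control clone 1 and 131 and 175 in WT. METTL3 KO, RBM45 KO clone 2 and control clone 2 overlapped WT, and both rescue clones, RBM45 KO clone 1 and control clone 1 lay above it. Col5a1 passed the test only in RBM45 KO clone 2 against clone 1 among the 6 comparisons (log2 change -0.65, SE 0.15, adjusted p = 0.00502, edgeR). The gene overlaps 2810430I11Rik on the other strand, and fragments of both genes cannot be told apart there.

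Col11a1 encodes a minor fibril chain best known from cartilage. Col11a1 had 4.50 and 2.80 CPM in METTL3 KO, 66.2 and 60.7 in KO rescue clone 2, 57.2 and 41.4 in KO rescue clone 1, 38.8 and 51.9 in RBM45 KO clone 2, 65.1 and 82.8 in RBM45 KO clone 1, 12.5 and 16.2 in control clone 2, 91.8 and 97 in control clone 1 and 12.1 and 17.2 in WT. METTL3 KO held the lowest libraries, control clone 2 and WT overlapped, and all other groups were higher, with control clone 1 at the top. Col11a1 was lower in METTL3 KO than in WT (log2 change -2.09, SE 0.28, adjusted p = 6.71e-05, edgeR), where Col1a1, Col1a2 and Col3a1 were higher. It was also lower in control clone 2 than in control clone 1 (log2 change -2.71, SE 0.22, adjusted p = 1.24e-07, edgeR) and in RBM45 KO clone 2 than in clone 1 (log2 change -0.71, SE 0.20, adjusted p = 0.0223, edgeR), as Col1a1 and Col5a2 were. Of the remaining fibrillar genes, Col27a1 had 10.1 ± 0.912 CPM in RBM45 KO clone 2 and 23.9 ± 1.75 CPM in clone 1 (SD, n = 2 each), and 9.37 ± 2.01 CPM in control clone 2 and 22.4 ± 3.64 CPM in control clone 1 (SD, n = 2 each). Both differences passed (log2 change -1.24 in each, adjusted p = 0.00245 and 0.00178, edgeR). Col5a3 stood at 0.206 ± 0.184 CPM in RBM45 KO clone 2 and 1.43 ± 0.561 CPM in clone 1 (SD, n = 2 each), and that difference passed too (log2 change -2.76, SE 0.70, adjusted p = 0.0117, edgeR). Col11a2 averaged 0.707 CPM over all libraries and passed in none of the 6 comparisons. Col2a1 and Col24a1 averaged 0.104 and 0.124 CPM and were not tested.

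**Figure D3:**
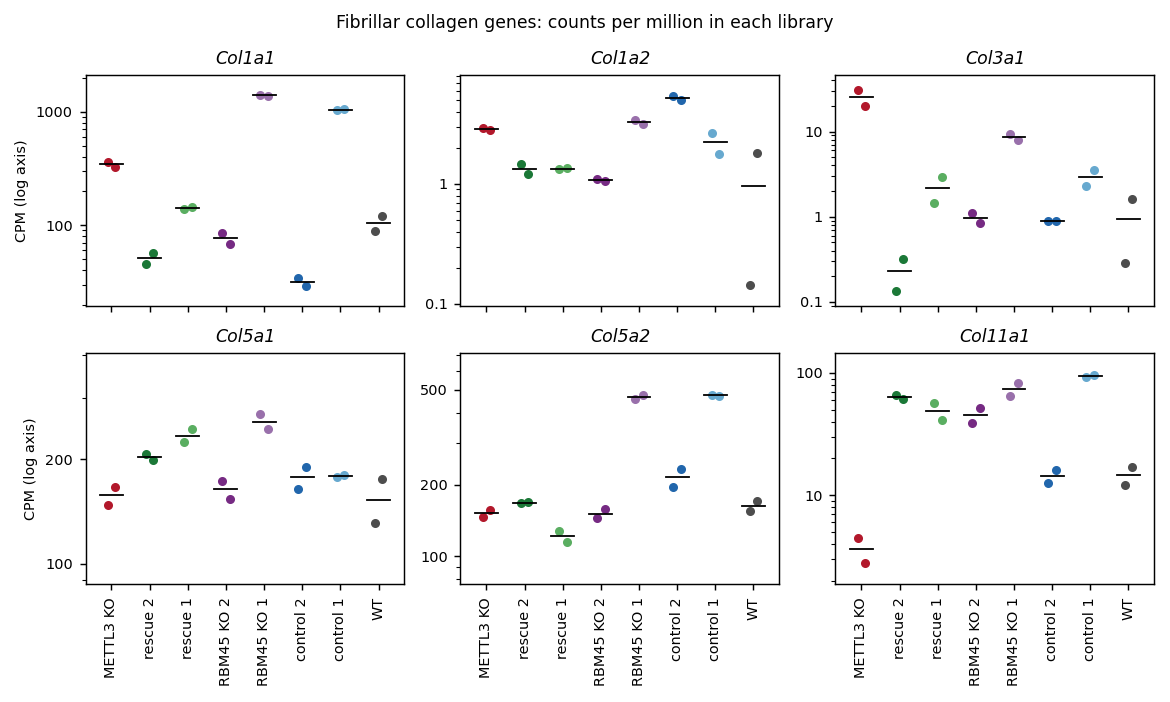
CPM of 6 fibrillar collagen genes in each library (log axis, 1 point per library, bar at the group mean), by group from METTL3 KO through the rescue, RBM45 KO and control clones to WT. Col1a1 and Col5a2 are high in RBM45 KO clone 1 and control clone 1, Col3a1 is highest in METTL3 KO, where it has 31.2 and 19.9 CPM, and Col11a1 is lowest there.

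The 6 type IV genes lie in 3 head-to-head pairs, in which the genes of a pair start close together and run apart. Col4a1 and Col4a2, which together form the common collagen IV protomer, are on chromosome 8 and their annotated starts overlap, Col4a1 starting at 11312826 on the minus strand and Col4a2 at 11312805 on the plus strand (GRCm38). Col4a3 and Col4a4 are on chromosome 1, and Col4a5 and Col4a6 are on the X chromosome. Promoter windows of RefSeq (GRCm38.p6, 250 bases before to 50 after a gene's start) were found for 35 of the 44 members. The stretch between the starts of Col4a4 and Col4a3 (chr1:82586850-82586920, minus strand) and the bases before the starts of Col4a6 (chrX:141474077-141474326, minus strand) and Col4a5 (chrX:141475169-141475384, plus strand) are shown. Any part of these sequences in how closely the genes of a pair moved together was not tested. Capitals mark matches, on either strand, to GGGCGG (GC box) or CCAAT, and TATAAA was searched as well.

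Col4a3 to Col4a4: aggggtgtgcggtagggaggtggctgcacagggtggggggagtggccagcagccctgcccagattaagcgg
Col4a6: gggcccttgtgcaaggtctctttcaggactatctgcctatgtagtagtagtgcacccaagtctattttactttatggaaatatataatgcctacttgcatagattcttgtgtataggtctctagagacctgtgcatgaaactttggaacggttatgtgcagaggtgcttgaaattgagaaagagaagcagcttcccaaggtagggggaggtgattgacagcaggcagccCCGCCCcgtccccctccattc
Col4a5: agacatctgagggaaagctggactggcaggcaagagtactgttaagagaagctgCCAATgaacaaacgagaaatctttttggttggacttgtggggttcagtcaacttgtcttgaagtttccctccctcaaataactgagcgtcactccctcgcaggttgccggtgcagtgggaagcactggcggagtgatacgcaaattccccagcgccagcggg

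The 71 bases between Col4a4 and Col4a3 held no match to any of the 3 motifs. The printed stretch of Col4a6 held 1 GC box and that of Col4a5 held 1 CCAAT. The whole window of Col4a5 also held 1 GC box, outside the printed bases. Of all 32851 promoter windows of 300 bases, 35.7% held a GC box, 37.4% held CCAAT and 13.6% held TATAAA. The printed stretches are shorter than these windows, so the shares compare with whole windows only. The whole window of Col4a4 held no match either. Between the starts of Col4a4 and Col4a3 lie 71 bases, and between those of Col4a6 and Col4a5 lie 1308 bases.

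Col4a1 and Col4a2 kept nearly the same ratio in all libraries. Col4a1 had 233 and 229 CPM in METTL3 KO, 129 and 144 in KO rescue clone 2, 115 and 114 in KO rescue clone 1, 149 and 149.8 in RBM45 KO clone 2, 172 and 163 in RBM45 KO clone 1, 303 and 341 in control clone 2, 161 and 148 in control clone 1 and 144 and 174 in WT. Col4a2 had 127 and 131 CPM in METTL3 KO, 77.4 and 78.1 in KO rescue clone 2, 67.9 and 74.6 in KO rescue clone 1, 87.1 and 81 in RBM45 KO clone 2, 100.3 and 94.9 in RBM45 KO clone 1, 149 and 175 in control clone 2, 85.7 and 83.1 in control clone 1 and 77.7 and 100.2 in WT. Control clone 2 was the highest group and METTL3 KO the second for both genes, and KO rescue clone 1 held the lowest libraries. The ratio of Col4a1 to Col4a2 counts lay between 1.53 and 2.02 in the 16 libraries. In METTL3 KO against WT both were higher (log2 change 0.54 for each, SE 0.13 for Col4a1 and 0.14 for Col4a2, adjusted p = 0.00681 and 0.00922, edgeR). In control clone 2 against control clone 1 both were higher as well (log2 change 1.06 and 0.94, adjusted p = 1.49e-05 and 7.38e-05, edgeR). These genes and Gm15418 and Gm15419 overlap on opposite strands, and fragments in the overlaps cannot be told apart.

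Col4a3 and Col4a4, whose chains join with Col4a5 in the basement membrane of the kidney glomerulus, fell together in METTL3 KO. Col4a3 had 0.675 and 1.34 CPM in METTL3 KO, 11.6 and 10.2 in KO rescue clone 2, 13.6 and 9.29 in KO rescue clone 1, 5.28 and 7.96 in RBM45 KO clone 2, 8.50 and 10.9 in RBM45 KO clone 1, 14.6 and 19.2 in control clone 2, 10.8 and 14.3 in control clone 1 and 2.73 and 5.79 in WT. Col4a4 had 1.80 and 2.19 CPM in METTL3 KO, 16.5 and 14 in KO rescue clone 2, 18 and 21.3 in KO rescue clone 1, 9.48 and 9.40 in RBM45 KO clone 2, 19.6 and 22.3 in RBM45 KO clone 1, 22.4 and 33.2 in control clone 2, 18.1 and 23.8 in control clone 1 and 5.61 and 12.7 in WT. METTL3 KO held the lowest libraries of both genes, and WT and RBM45 KO clone 2, which overlapped each other, lay between it and the remaining groups without overlapping either. Both were lower in METTL3 KO than in WT, Col4a3 by a log2 change of -2.02 (SE 0.44, adjusted p = 0.00360, edgeR) and Col4a4 by -2.21 (SE 0.35, adjusted p = 3.04e-04, edgeR). Both were higher in the control clones than in WT (log2 change 1.71, SE 0.28, adjusted p = 6.66e-04 for Col4a3 and log2 change 1.35, SE 0.23, adjusted p = 0.00123 for Col4a4, edgeR). The ratio of Col4a3 to Col4a4 counts ran from 0.375 to 0.847. Col4a3 overlaps C430014B12Rik on the other strand, which had 1678 counts in all libraries together, against 2050 of Col4a3. Fragments in that overlap cannot be told apart, which bears on the level of Col4a3 and on this ratio.

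Col4a5 and Col4a6 came apart in control clone 1 and METTL3 KO. Col4a6 had 0.563 and 0.792 CPM in METTL3 KO, 12.5 and 12.2 in KO rescue clone 2, 16.2 and 14.9 in KO rescue clone 1, 5.62 and 5.76 in RBM45 KO clone 2, 11.2 and 7.85 in RBM45 KO clone 1, 18.1 and 23 in control clone 2, 0.125 and 0.157 in control clone 1 and 6.77 and 8.59 in WT. Col4a5 had 28.9 and 30.2 CPM in METTL3 KO, 27.9 and 26.9 in KO rescue clone 2, 26.4 and 29.9 in KO rescue clone 1, 16.7 and 14.1 in RBM45 KO clone 2, 23.9 and 23 in RBM45 KO clone 1, 41.9 and 61.3 in control clone 2, 20.7 and 20.9 in control clone 1 and 20.6 and 26.5 in WT. Col4a6 was nearly absent from control clone 1, with 2 and 3 counts, and low in METTL3 KO, with 5 and 13 counts, whereas Col4a5 in both groups lay within the range of the others. The ratio of Col4a5 to Col4a6 counts was 51.4 and 38.1 in METTL3 KO and 166 and 133 in control clone 1. In the other 12 libraries it ran from 1.63 to 3.08. In control clone 2 against control clone 1, 521 counts of Col4a6 against 5 gave a ratio of 148 (95% exact interval 63.0 to 458, counting error only; adjusted p = 1.04e-10, edgeR), and Col4a5 was higher by a log2 change of 1.32 (SE 0.16, adjusted p = 1.57e-05, edgeR). In METTL3 KO against WT, Col4a6 was lower (log2 change -3.44, SE 0.30, adjusted p = 1.16e-06, edgeR), and Col4a5 had a log2 change of 0.32 that did not pass. Against the log-scale mean of the control clones, Col4a6 was called lower in METTL3 KO (log2 change -1.30, adjusted p = 0.0421, edgeR), a call lost on exon-bin counts (adjusted p = 0.646, edgeR). METTL3 KO lay below control clone 2 but above control clone 1, by a ratio of 5.01 (95% exact interval 1.79 to 17.3, counting error only). The controls' lower call against WT (log2 change -2.14, SE 0.26, adjusted p = 4.65e-05, edgeR) likewise averages a clone above WT and one far below it.

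**Figure D4:**
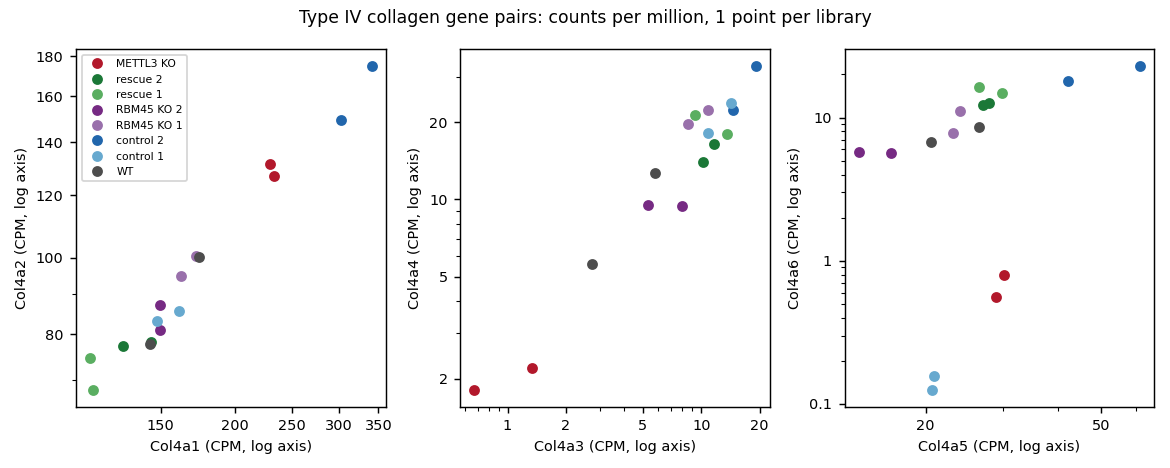
CPM of the 2 genes of each type IV pair against each other (log axes, 1 point per library, coloured by group). Col4a1 and Col4a2, and Col4a3 and Col4a4, lie along a line, whereas the 2 libraries of control clone 1 and the 2 of METTL3 KO fall far below the others in Col4a6, under 1 CPM, at a usual level of Col4a5.

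Of the beaded filament collagens of type VI, Col6a3 changed most between groups. Col6a3 had 8.78 and 13.9 CPM in METTL3 KO, 2.21 and 1.54 in KO rescue clone 2, 0.772 and 1.11 in KO rescue clone 1, 0.923 and 1.59 in RBM45 KO clone 2, 115 and 104 in RBM45 KO clone 1, 63.7 and 116 in control clone 2, 45.9 and 76.3 in control clone 1 and 5.76 and 20.7 in WT. It was near 1 CPM in RBM45 KO clone 2 and both rescue clones, and RBM45 KO clone 1 and both control clones stood far above these without overlap, with METTL3 KO and WT between them. The 32 counts in RBM45 KO clone 2 against 2272 in clone 1 gave a ratio of 0.0117 (95% exact interval 0.00800 to 0.0166, counting error only), and the log2 change was -6.41 (SE 0.51, adjusted p = 1.13e-07, edgeR). Col6a3 was higher in the control clones than in WT (log2 change 2.43, SE 0.35, adjusted p = 2.58e-04, edgeR) and lower in METTL3 KO than in the control clones (log2 change -2.67, SE 0.35, adjusted p = 1.95e-05, edgeR).

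The genes of its partner chains varied less. Col6a1 had 16.9 and 13.5 CPM in METTL3 KO, 8.65 and 7.69 in KO rescue clone 2, 6.68 and 6.67 in KO rescue clone 1, 12.7 and 12.1 in RBM45 KO clone 2, 26.2 and 22.7 in RBM45 KO clone 1, 8.65 and 11.3 in control clone 2, 21.9 and 19.9 in control clone 1 and 17.3 and 14.7 in WT. Col6a2 had 6.53 and 7.92 CPM in METTL3 KO, 3.22 and 4.81 in KO rescue clone 2, 1.77 and 2.94 in KO rescue clone 1, 5.79 and 5.46 in RBM45 KO clone 2, 11.1 and 8.80 in RBM45 KO clone 1, 3.88 and 4.48 in control clone 2, 8.29 and 6.79 in control clone 1 and 6.19 and 5.59 in WT. Both were highest in RBM45 KO clone 1 and lowest in KO rescue clone 1, and KO rescue clone 2 overlapped control clone 2. Col6a1 was lower in RBM45 KO clone 2 than in clone 1 (log2 change -0.98, SE 0.16, adjusted p = 2.87e-04, edgeR), as was Col6a2 (log2 change -0.81, SE 0.23, adjusted p = 0.0214, edgeR; adjusted p = 0.0569 on exon-bin counts). The ratio of Col6a1 to Col6a2 counts ran from 1.6 to 3.78. Col6a6 had 1.80 and 1.95 CPM in METTL3 KO, 3.69 and 6.22 in KO rescue clone 2, 2.48 and 4.29 in KO rescue clone 1, 5.28 and 4.40 in RBM45 KO clone 2, 10.1 and 4.14 in RBM45 KO clone 1, 3.08 and 2.11 in control clone 2, 2.87 and 1.67 in control clone 1 and 6.19 and 2.00 in WT. The highest library was 1 of RBM45 KO clone 1, and METTL3 KO overlapped control clone 1 and lay below control clone 2 and WT. It averaged 3.89 CPM over the gene body but only 0.0033 exon CPM per kilobase, so nearly all of its counts lay in introns. Col6a4 had 1 count in all and Col6a5 had none.

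Col7a1, the gene of the anchoring fibrils that fasten basement membranes to the tissue below, was likewise low in RBM45 KO clone 2 and both rescue clones. Col7a1, counted in a row joined with Mir711, had 5.40 and 10.6 CPM in METTL3 KO, 0.469 and 0.385 in KO rescue clone 2, 0.772 and 1.03 in KO rescue clone 1, 0.755 and 0.834 in RBM45 KO clone 2, 6.78 and 8.37 in RBM45 KO clone 1, 8.95 and 10.3 in control clone 2, 7.73 and 10.6 in control clone 1 and 10.4 and 18 in WT. Both rescue clones and RBM45 KO clone 2 lay near or below 1 CPM, and every other library was above 5 CPM. Col7a1 was lower in RBM45 KO clone 2 than in clone 1 (log2 change -3.24, SE 0.41, adjusted p = 2.33e-05, edgeR). It was also called lower in METTL3 KO than in WT (log2 change -0.79, SE 0.27, adjusted p = 0.0436, edgeR), although these groups overlapped and the call was lost on exon-bin counts (adjusted p = 0.0885, edgeR).

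Col8a1, a short-chain collagen of vessel and corneal matrices, went the other way. Col8a1 had 50.5 and 51 CPM in METTL3 KO, 59.3 and 56.6 in KO rescue clone 2, 63.4 and 47.2 in KO rescue clone 1, 33.6 and 42.6 in RBM45 KO clone 2, 10.4 and 9.49 in RBM45 KO clone 1, 25.9 and 34.3 in control clone 2, 30.8 and 30.8 in control clone 1 and 37.3 and 43.1 in WT. RBM45 KO clone 1 held the lowest libraries and stood apart from all others, and the rescue clones and METTL3 KO were at the top. Col8a1 was the 1 member higher in RBM45 KO clone 2 than in clone 1 (log2 change 1.94, SE 0.18, adjusted p = 9.25e-07, edgeR). It was also higher in METTL3 KO than in the control clones (log2 change 0.73, SE 0.14, adjusted p = 6.03e-04, edgeR).

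Collagens that attach to fibrils varied less. Col12a1 had 192 and 183 CPM in METTL3 KO, 192 and 187 in KO rescue clone 2, 145 and 113 in KO rescue clone 1, 157 and 181 in RBM45 KO clone 2, 131 and 134 in RBM45 KO clone 1, 83.9 and 99.5 in control clone 2, 121 and 113 in control clone 1 and 195 and 133 in WT. Control clone 2 held the lowest libraries, and control clone 1 overlapped KO rescue clone 1 but lay below WT. Col12a1 was lower in the control clones than in WT (log2 change -0.66, SE 0.14, adjusted p = 0.00697, edgeR) and higher in METTL3 KO than in the control clones (log2 change 0.86, SE 0.14, adjusted p = 1.82e-04, edgeR). Col16a1 had 9.90 and 16.2 CPM in METTL3 KO, 7.78 and 7.44 in KO rescue clone 2, 13.7 and 16.3 in KO rescue clone 1, 9.23 and 9.71 in RBM45 KO clone 2, 9.68 and 8.45 in RBM45 KO clone 1, 12.5 and 14.3 in control clone 2, 10.1 and 9.24 in control clone 1 and 10.2 and 11.3 in WT. Rescue clone 2 was the lowest group and did not overlap rescue clone 1, which was among the highest. Col16a1 passed only between the rescue clones (log2 change -0.97, SE 0.19, adjusted p = 0.00737, edgeR) among the 6 comparisons.

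METTL3 KO was also the highest group of 2 low collagens. Col23a1, a transmembrane collagen, had 3.15 and 2.50 CPM in METTL3 KO, 0.201 and 0.128 in KO rescue clone 2, 0.166 and 0.238 in KO rescue clone 1, 0.503 and 0.152 in RBM45 KO clone 2, 0.108 and 0.0863 in RBM45 KO clone 1, 0.199 and 0.204 in control clone 2, 0.312 and 0.366 in control clone 1 and 0.576 and 0.499 in WT. Both METTL3 KO libraries were above all others, and no other library reached 1 CPM. Col23a1 was higher in METTL3 KO than in WT (log2 change 2.37, SE 0.45, adjusted p = 0.00134, edgeR), with 28 and 41 counts against 4 and 5. Col20a1, in a row joined with BX649560.1, was higher there as well, at 7.41 ± 0.821 CPM in METTL3 KO and 4.20 ± 0.573 CPM in WT (SD, n = 2 each; adjusted p = 0.0123, edgeR). Col18a1, which yields the fragment endostatin and overlaps Slc19a1 on the other strand, was lower in METTL3 KO, at 2.17 ± 0.746 CPM against 6.15 ± 1.07 CPM in WT (SD, n = 2 each; adjusted p = 0.00243, edgeR). Slc19a1 and Gm7775, on its other strand, had 3061 counts in all libraries together, against 852 of Col18a1. Fragments in these overlaps cannot be told apart. Of the remaining other collagens, Col9a3, Col10a1 and Col14a1 averaged under 1 CPM and passed in none of the 6 comparisons. Col17a1 averaged 0.365 CPM and was tested between the clones of the RBM45 genotypes only. Col9a1, Col9a2, Col13a1, Col15a1, Col19a1, Col22a1, Col25a1, Col26a1, Col28a1 and Col8a2 averaged 0.231 CPM or less and were not tested.

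**Figure D5:**
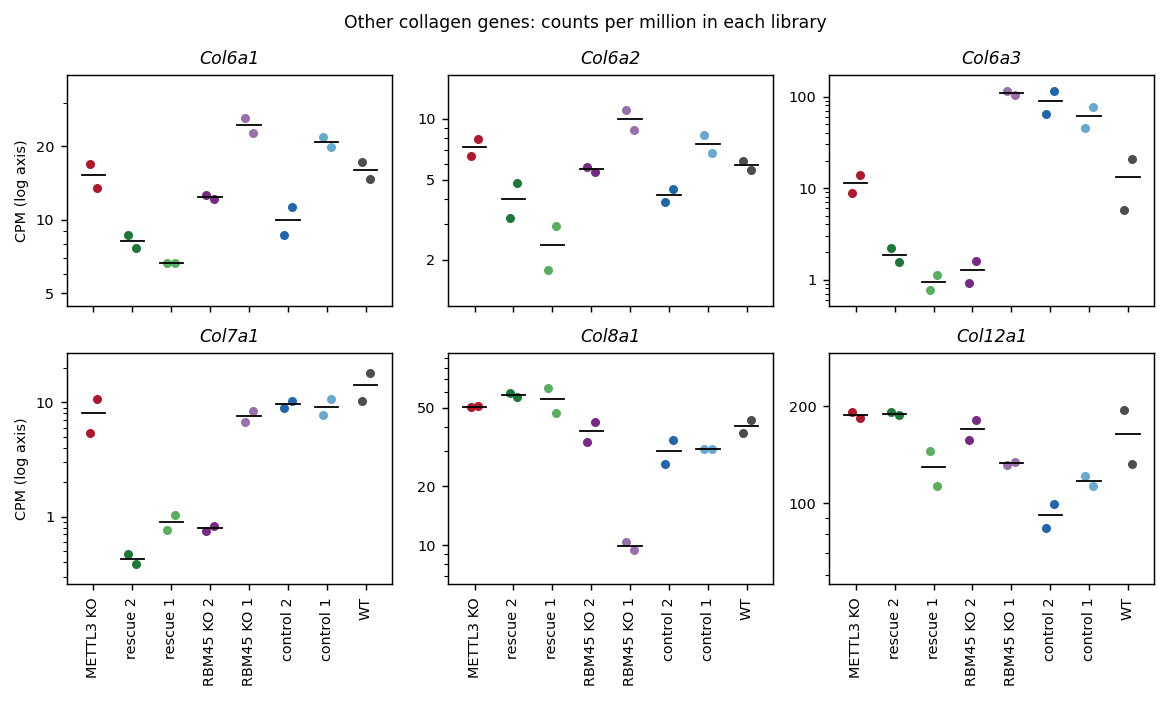
CPM of 6 other collagen genes in each library (log axis, 1 point per library, bar at the group mean), by group from METTL3 KO to WT. Col6a3 and Col7a1 are low in both rescue clones and in RBM45 KO clone 2, at 0.385 to 2.21 CPM, whereas Col6a1 and Col6a2 stay closer to their level elsewhere.

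Between the RBM45 genotypes, with the libraries of a clone added and 2 clones per genotype, no collagen passed. In RBM45 KO against control, 0 of 29 members and 0% of all 16867 genes passed edgeR's quasi-likelihood test. At an unadjusted p under 0.05 there were 2 members, where 5.83% of all genes reached it, and DESeq2 called 0 members. The 3 members of smallest p did not pass, all at an adjusted p of 0.754 (edgeR). These were Col6a6, with 5.98 ± 2.79 CPM in RBM45 KO and 2.43 ± 0.657 CPM in control, Col4a3, with 8.15 ± 2.29 CPM in RBM45 KO and 14.7 ± 3.46 CPM in control, and Col12a1, with 151 ± 23.3 CPM in RBM45 KO and 104 ± 16.3 CPM in control (SD, n = 4 libraries each). Of the 29 members, 2 did not overlap between the genotypes, Col6a6 and Col12a1, where 6.78% of all genes did not, and Col4a3 overlapped. None of the 6 type IV genes passed, and for some the sign turned with the control clone. Against control clone 1, Col4a6 had a log2 change of 5.23 in RBM45 KO clone 2 and 5.96 in RBM45 KO clone 1, whereas against control clone 2 it had -1.86 in RBM45 KO clone 2 and -1.13 in RBM45 KO clone 1. RBM45 KO clone 1 had 3 members called against control clone 1 (Col3a1 and Col4a6 higher, Col8a1 lower) where 0.771% of all genes were called. Against control clone 2 the same clone had 18 members called (18.4% of all genes). RBM45 KO clone 2 had 12 called against control clone 1 (17.2% of all genes) and 14 against control clone 2 (25.5% of all genes). No member passed with 1 sign throughout these 4 clone pairs, where 0.105% of all genes did.

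In KO rescue against RBM45 KO, again 0 of 29 members and 0% of all genes passed at clone level. At an unadjusted p under 0.05 there were 4 members, where 7.35% of all genes reached it, and DESeq2 called 0 members. The 3 of smallest p were the type VI genes, all at an adjusted p of 0.662 (edgeR). Col6a1 stood at 7.42 ± 0.950 CPM in KO rescue and 18.4 ± 7.12 CPM in RBM45 KO, Col6a2 at 3.18 ± 1.25 CPM in KO rescue and 7.78 ± 2.66 CPM in RBM45 KO, and Col6a3 at 1.41 ± 0.621 CPM in KO rescue and 55.3 ± 62.6 CPM in RBM45 KO (SD, n = 4 libraries each). Of the 29 members, 7 did not overlap between the genotypes, where 15% of all genes did not. Besides Col6a1 and Col6a2 these were Col8a1, higher in KO rescue, and 4 of the 6 type IV genes. Col4a1 and Col4a2 were lower in KO rescue, and Col4a5 and Col4a6 were higher. For Col6a3, RBM45 KO clone 2 lay among the rescue libraries. By the share of all genes called, the rescue clones were closer to RBM45 KO clone 2 than to clone 1. Against RBM45 KO clone 2, rescue clone 1 had 6 of 29 members called (1.38% of all genes) and rescue clone 2 had 3 (1.78% of all genes). In each case this was a larger share of the members than of all genes. Against RBM45 KO clone 1, rescue clone 1 had 16 members called (18.9% of all genes) and rescue clone 2 had 13 (21.5% of all genes). No member passed with 1 sign throughout the 4 pairs (0.24% of all genes). Leaving out RBM45 KO clone 2 leaves RBM45 KO clone 1 alone, so it gives no test between the genotypes.

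In KO rescue against control, 0 of 29 members and 0% of all genes passed at clone level, 7 members were under an unadjusted p of 0.05, where 15.5% of all genes were, and DESeq2 called 2 members. Col7a1 had the smallest p, at 0.665 ± 0.296 CPM in KO rescue and 9.40 ± 1.33 CPM in control (SD, n = 4 libraries each; log2 change -3.87, SE 1.00, adjusted p = 0.276, edgeR). Col6a3 followed at 1.41 ± 0.621 CPM in KO rescue and 75.5 ± 29.8 CPM in control (log2 change -5.83, SE 1.80, adjusted p = 0.276, edgeR). Col4a1 came after them at 126 ± 14.2 CPM in KO rescue and 238 ± 98.1 CPM in control (adjusted p = 0.293, edgeR). Of the 29 members, 9 did not overlap between the genotypes, these 3 among them, where 23.5% of all genes did not. Rescue clone 1 had 12 members called against control clone 1 (19.2% of all genes) and 16 against control clone 2 (30.3% of all genes), and rescue clone 2 had 13 (18.7% of all genes) and 15 (30.8% of all genes) against control clones 1 and 2. At the spread between replicate libraries, 4 members passed with 1 sign throughout the 4 clone pairs, Col5a2, Col6a3 and Col7a1 lower and Col8a1 higher, where 7.51% of all genes did (3.61% higher and 3.91% lower). On exon-bin counts 3 members did. Leaving out either RBM45 KO clone, which shares the estimate of the spread, gave 2 members called at clone level. The share of all genes was not counted there or for DESeq2, so these counts of 2 members are not a result about collagens. Each pair of the 3 genotype comparisons shares the clones of 1 genotype, so they are not independent of each other.

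Genes that make, process and bind collagen were counted beside the members, to be read against the share of all genes called, which was 22.9% in METTL3 KO against WT, 14.1% between the RBM45 KO clones, 19.6% between the control clones and 2.29% between the rescue clones. Of 18 tested genes of collagen biosynthesis, 2 rose and 3 fell in METTL3 KO against WT, with P3h2, a prolyl 3-hydroxylase, higher (log2 change 1.10, SE 0.22, adjusted p = 0.00201, edgeR), Plod2, a lysyl hydroxylase, higher (0.63, SE 0.13, adjusted p = 0.00327, edgeR) and Ppib, a prolyl isomerase, lower (-0.71, SE 0.20, adjusted p = 0.0159, edgeR). In RBM45 KO clone 2 against clone 1, 1 rose and 5 fell, and Fkbp10, a collagen chaperone, had the smallest p (log2 change -1.59, SE 0.15, adjusted p = 7.87e-07, edgeR). P3h3 was higher (1.6) and P3h4 lower (-0.69) on the same log2 scale. Control clone 2 against control clone 1 had 2 higher and 2 lower, with P3h3 first (log2 change 2.04, adjusted p = 6.38e-04, edgeR). None was called between the rescue clones. The 5 of 18 called in METTL3 KO against WT and the 4 of 18 between the control clones were near the share of all genes.

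Of 12 tested genes of procollagen processing and crosslinking, 2 were higher and 2 lower in METTL3 KO against WT. Adamts2, which removes the amino-terminal propeptide, was higher (log2 change 0.88, SE 0.16, adjusted p = 0.00110, edgeR), as was Pcolce, an enhancer of the carboxy-terminal cleavage (0.74, SE 0.18, adjusted p = 0.00611, edgeR), and Tll1, a tolloid-like protease, was lower (-1.96, SE 0.56, adjusted p = 0.0182, edgeR). In RBM45 KO clone 2 against clone 1, 7 were lower and none higher, among them the crosslinking oxidase genes Loxl2 (log2 change -2.03, adjusted p = 8.83e-05, edgeR) and Loxl1 (-2.56, adjusted p = 9.07e-05, edgeR) and Pcolce2 (-1.21, adjusted p = 8.83e-05, edgeR). Control clone 2 against control clone 1 had 4 higher and 2 lower, with Loxl4 first (log2 change 1.28, SE 0.15, adjusted p = 1.25e-05, edgeR). The rescue clones differed in Adamts14 (log2 change -1.02) and Adamts2 (-0.84), both lower in clone 2.

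Of 6 tested collagen receptors, Itgb1, the shared beta chain of the collagen-binding integrins, was lower in METTL3 KO than in WT (log2 change -0.69, SE 0.15, adjusted p = 0.00291, edgeR), and Ddr2, a receptor kinase for fibrillar collagen, was higher (0.35, SE 0.12, adjusted p = 0.0392, edgeR). In RBM45 KO clone 2 against clone 1, 1 receptor was higher and 2 were lower, and the same counts held in control clone 2 against control clone 1. Ddr2 had the smallest p in both. It was lower in RBM45 KO clone 2 than in clone 1 (log2 change -1.47, SE 0.12, adjusted p = 1.34e-07, edgeR) and lower in control clone 2 than in control clone 1 (-1.11, SE 0.12, adjusted p = 3.28e-06, edgeR). No receptor was called between the rescue clones. Among 13 tested partners of type IV collagen in basement membranes, 1 was higher and 4 were lower in METTL3 KO against WT, and the laminin chain gene Lama5 had the smallest p (log2 change -2.02, SE 0.17, adjusted p = 6.86e-07, edgeR). Agrn, which encodes agrin (-0.56), and the laminin chain gene Lama4 (-1.63) were lower too. In control clone 2 against control clone 1, where 4 type IV genes were higher, 7 partners were lower and 1 was higher, with Nid2 (log2 change -1.79), Lamc1 (-1.17) and Lama4 (-5.32) first. In RBM45 KO clone 2 against clone 1, 3 partners were higher and 3 lower, with Lama2 higher (log2 change 3.47, SE 0.24, adjusted p = 2.40e-08, edgeR) and Lamb1 lower (-1.53, SE 0.13, adjusted p = 2.28e-07, edgeR). Lamb1 was higher (log2 change 1.16) and Lama2 lower (-0.78) in clone 2 of the rescue pair, set against its clone 1. In METTL3 KO against the control clones, where 30.6% of all genes were called, 2 biosynthesis genes were higher and 2 lower, 4 processing genes higher and 4 lower, 1 receptor lower and 6 partners lower. In the control clones against WT, where 8.99% of all genes were called, 2 biosynthesis genes were higher and 1 lower, 3 processing genes higher and 2 lower, 1 receptor higher, and 3 partners higher and 1 lower. At clone level, no gene of these 4 lists passed between the RBM45 genotypes, where no gene at all did.

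Use of single exons did not pass the test in any collagen gene. Of 101929 exon bins that averaged 10 counts or more, 428 lay in 12 collagen genes, and 0 of these were called by diffSpliceDGE of edgeR in METTL3 KO against WT, where 14 of all bins (0.0137%) were. In the 3 comparisons between RBM45 genotypes 0 collagen bins were called as well, where 4 bins (0.00392%) were called in RBM45 KO against control, 1 bin (0.000981%) in KO rescue against RBM45 KO and 6 bins (0.00589%) in KO rescue against control. At an unadjusted p under 0.05 there were 10 collagen bins in METTL3 KO against WT (2.87% of all bins), 0 in RBM45 KO against control (0.435%), 0 in KO rescue against RBM45 KO (0.539%) and 1 in KO rescue against control (0.659%). The smallest p in METTL3 KO against WT was that of a bin of Col5a1 (chr2:28037430-28039514), which held 6.95% of the gene's bin counts in METTL3 KO and 4.54% in WT and did not pass (adjusted p = 1, edgeR). In KO rescue against control the first in order was a bin of Col12a1 (chr9:79600008-79601179), with 3.97% of the gene's bin counts in KO rescue and 2.39% in control (adjusted p = 1, edgeR).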

How the data were processed

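Ribodepleted total RNA of 16 mHiPPoE-2 libraries, prepared with a non-directional kit, was sequenced by the authors. The deposited values are raw fragment counts per gene body, introns included, and per exon bin of flattened Ensembl 98 models on GRCm38, made with featureCounts 1.6.3 per the file headers. A fragment was counted in each feature with an overlap of at least 0.1 of its length, and the strand setting with a non-directional kit leaves genes that overlap on opposite strands inseparable. HISAT2 2.1.0 is named in the submitters' processing notes.

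Members, classes and gene lists were chosen with earlier results of these data known. Counts were fitted with edgeR 4.0.16 (quasi-likelihood test, TMM, filterByExpr) in R 4.3.3, with Benjamini-Hochberg adjustment over all genes at 0.05. Lines and clones were compared in a fit of all 16 libraries (16223 genes), in which a contrast with the control clones averages both on the log scale. RBM45 genotypes were compared in a fit of 6 clones with the libraries of each clone added (16867 genes). For exon bins that averaged 10 counts or more, diffSpliceDGE was used. Count ratios have exact 95% intervals that cover counting error only. Values per library are given for the members of smallest p in each comparison and the most abundant of each class, and up to 3 genes of smallest p per list. The fits were tested on simulated data without differences between clones of a genotype. Those runs do not show how the fits handle such differences. Alternatives were RLE scaling, DESeq2 1.42.0, no filter, exon-bin counts, abundant rows left out, each library or clone left out and a replicate block. Control columns were assigned by elimination, since their names match no label. The intron table was not used.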

Additional observations from a re-analysis of the deposited data

Results flagged for a closer look

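In Col5a2 and Col1a1 the RBM45 KO clones lay on opposite sides of the log-scale mean of the control clones, which themselves differed. The difference between the KO clones passed edgeR's quasi-likelihood test. These 2 fibrillar collagens were not the only such genes. Col3a1 had log2 changes of 1.54 and 3.26 in RBM45 KO clone 1 against control clones 1 and 2. In RBM45 KO clone 2 it had -1.61 and 0.11. Col5a2 had a log2 change of -1.08 in RBM45 KO clone 2 and of 0.55 in RBM45 KO clone 1, each against the control clones, a difference of -1.62. Col1a1 had a log2 change of -1.24 in RBM45 KO clone 2 and of 2.94 in RBM45 KO clone 1, a difference of -4.18.
Against single control clones the sides were not opposite throughout. Col5a2 had a log2 change of -0.02 in RBM45 KO clone 1 against control clone 1, which did not pass, and Col1a1 had one of 1.29 in RBM45 KO clone 2 against control clone 2.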

How the results depend on the processing

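With libraries in place of clones as the unit, 14 members were called in RBM45 KO against control, 13 in KO rescue against RBM45 KO and 18 in KO rescue against control, and the same 3 counts, 14, 13 and 18, came with a replicate block. Single clone pairs of these comparisons had 0.771% to 30.8% of all genes called. That share was not counted in these settings or in the alternatives below, so their counts are not a result about collagens. DESeq2 called 2 members in KO rescue against control. With no filter, 5 members were called between the rescue clones. Leaving out each library gave 9 to 15 members in METTL3 KO against WT, 11 to 14 against the control clones, 7 to 13 in the control clones against WT, 10 to 14 between control clones, 10 to 16 between RBM45 KO clones and 1 to 4 between rescue clones. Leaving out a clone of the genotype not compared gave 0 members in RBM45 KO against control and 0 in KO rescue against RBM45 KO. In KO rescue against control it gave 2. Leaving out a clone of a compared genotype leaves a single clone there and gives no test between genotypes. Over 28 pairs of groups, deviations of same-numbered libraries correlated at -0.306 to 0.489 (median 0.0779, over 0.1 in 13), so the numbers were not taken to pair libraries. No called member changed sign under RLE scaling, DESeq2, exon-bin counts or with abundant rows left out, and on exon-bin counts all 41 log2 changes of the members of smallest p in each comparison kept direction and side of the threshold, and Col6a6 in RBM45 KO against control had no exon-bin value. Outside those, calls lost on exon-bin counts were Col7a1 in METTL3 KO against WT, Col4a6 in METTL3 KO against the control clones, Col4a2 in the control clones against WT, and Col4a6 and Col6a2 between the RBM45 KO clones. Members that failed the filter on low counts could not be compared at this depth.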
